A study of Drosophila melanogaster with 6 samples.

Results

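Glutathione S-transferases (GSTs) and UDP-glycosyltransferases (UGTs) were followed in whole brains of adult Drosophila melanogaster females. Members were all probe sets that the platform annotation maps to a single gene whose symbol starts with Gst followed by D, E, O, S, T or Z and a digit, or with Ugt followed by a digit. This gave 71 probe sets of 13966, with 36 for 34 GST genes and 35 for 33 UGT genes. GstT1, Ugt35D1 and Ugt50B3 had no probe set with a single gene and were not analysed here. The study set 3 arrays of mushroom body-ablated brains (ablated 4, 5 and 6) against 3 arrays of control brains (control 1, 2 and 3). All flies were of the wild-type strain CantonS and were kept at 25 °C on corn meal food. Ablated brains came from flies fed hydroxyurea, an inhibitor of DNA synthesis, as newly hatched larvae (25 mg/ml in yeast paste for 4 h), and control flies received no treatment. The drug kills dividing neuroblasts of the mushroom bodies, the paired centres of olfactory learning. Any other effect of larval hydroxyurea on the adult cannot be told apart here from the loss of the mushroom bodies.

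GSTs join the tripeptide glutathione to reactive compounds, and UGTs join a sugar, in insects mostly glucose, to small lipophilic molecules. Both reactions make their substrates more soluble and ready for export, and both families also act on hormones, odorants, pigments and products of lipid oxidation. In flies the delta (D) and epsilon (E) classes of GSTs are large and insect-specific, while the omega (O), sigma (S), theta (T) and zeta (Z) classes have relatives in vertebrates. UGTs are membrane enzymes of the endoplasmic reticulum whose subfamilies are numbered, and several are found in the antenna, where they help to clear odorants.

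Signal was read as MAS5 intensity, a linear summary of the probes of a probe set, so that intensities are compared between arrays for the same probe set and not between probe sets. The median intensity was 13.0 to 14.8 on the ablated arrays and 14.2 to 17.6 on the control arrays. Precision rests on having 3 arrays a group. Since the labels do not say whether the arrays came from separate cultures, the p-values reflect the scatter among these arrays, part of which may be technical. The eyeless gene ey (143543_at), a marker of Kenyon cells, the intrinsic neurons of the mushroom bodies, read 108, 98.2 and 120.2 on ablated 4, 5 and 6 and 268, 193 and 199 on control 1, 2 and 3. Over 11 Kenyon cell probe sets the summed intensity was 2368 to 2775 on ablated and 2896 to 3557 on control arrays. Much of it came from rut (151241_f_at), whose groups overlapped. Of 9 tested, 5 were lower at an unadjusted limma p under 0.05 and 0 higher, against 7.89% and 0.632% of all tested probe sets. Every ablated array was below every control array for 4 of the 9, against 14.8%. Their log2 differences, ablated minus control, lay between -1.39 and 0.24. The summed intensity of 12 neuronal probe sets was 1322 to 1423 on ablated and 1462 to 1826 on control arrays, without overlap. Of the 8 tested, 3 were lower at an unadjusted limma p under 0.05 and 0 higher, against 7.89% and 0.632% of all tested probe sets. Their median log2 difference, ablated minus control, was -0.15, against -0.17 over all tested probe sets. The summed intensity of 8 glial probe sets overlapped, at 2063 to 2642 on ablated and 2465 to 2908 on control arrays. Markers of other tissues were also present. The summed intensity of 8 olfactory organ markers was 145 to 1385 on ablated and 67 to 77.4 on control arrays. That of 9 fat body probe sets was 16080 to 20317 on ablated and 11553 to 25990 on control arrays. That of 7 muscle probe sets was 239 to 1204 on ablated and 91.5 to 678 on control arrays, and that of 6 eye probe sets was 373 to 1333 on ablated and 98.9 to 1723 on control arrays. That of 9 tracheal and apical matrix probe sets was 269 to 554 on ablated and 98.7 to 242 on control arrays, again without overlap. Every ablated array was above every control array for 2 of the 5 tested, wat and pio, against 1.26% of all tested probe sets. Much of the sum came from wat (150796_at). It read 315, 419.5 and 189 on ablated 4, 5 and 6 and 89.4, 155 and 43.1 on control 1, 2 and 3. In bulk brains, fewer cells of a type and less RNA per cell cannot be told apart. All marker lists were set with earlier results of these arrays known, so counts of their members are not independent evidence.

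No GST or UGT probe set passed the test between ablated and control brains. A probe set was tested where its mean over the 6 arrays was at or above an intensity of 9.2, the 40th percentile of all values, and 41 of the 71 members (25 GST and 16 UGT) were. After Benjamini-Hochberg adjustment over all 8381 tested probe sets, limma called 0 members and 0 probe sets in all, at an adjusted p of 0.05. At an unadjusted p under 0.05 there was 1 lower member, GstD11, against 7.89% of all tested probe sets, and 1 higher member, Ugt36E1, against 0.632%. The same 2 members were those whose groups did not overlap. Every ablated array was below every control array for 1 of 41 members, against 14.8% of all tested probe sets, and above for 1 of 41, against 1.26%. Both lie close to the level for testing and each reached it through its brighter group alone, which was not so for any other tested member.

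**Figure D1:**
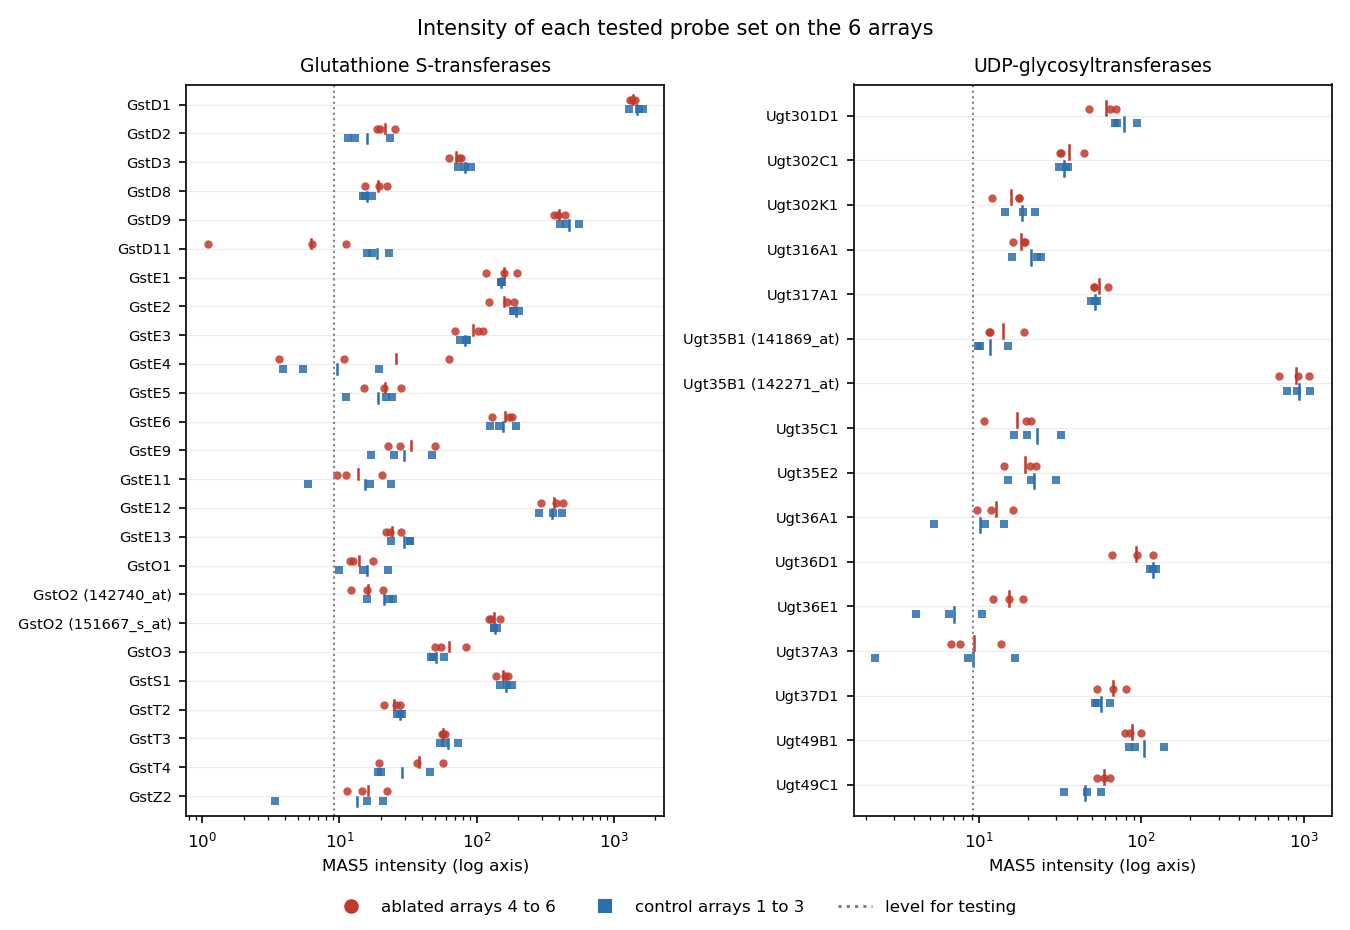
Intensity of the 41 tested probe sets on each array (x axis, MAS5 intensity, log scale), with ablated arrays as red circles above control arrays as blue squares, vertical ticks at the mean of 3 arrays and a dotted line at the level for testing, 9.2. The groups are apart only for GstD11, where the ablated arrays lie below, and for Ugt36E1, where they lie above.

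GstD11 (149764_at), the outermost gene of the delta cluster on chromosome arm 3R, read 1.1, 11.1 and 6.3 on ablated 4, 5 and 6. On control 1, 2 and 3 it read 22.9, 17.4 and 15.9. All 3 control arrays were above the highest ablated array, and ablated 4 was the lowest by far. The means were 6.17 ± 5.0 in ablated and 18.7 ± 3.69 in control brains (SD, n = 3 each), and the log2 difference was -1.45 (SE 0.48, 95% interval -2.52 to -0.38, adjusted p = 0.554 by limma). Differences are taken on log2(intensity + 2.7), a scale that understates the change of dim probe sets. GstD11 was not tested when the level of the filter was the 60th percentile. Over 14 alternative settings that kept it, the difference lay between -1.86 and -0.67 and its adjusted p between 0.359 and 0.918. Without ablated 4 it was -0.93. Its unadjusted p rose above 0.05 without control 1, to 0.0523.

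The other tested delta GSTs had differences between -0.22 and 0.41. The 11 delta genes are neighbours on 3R. Genes are called neighbours when they belong to a run of members with at most a single other protein-coding gene between successive members. Of the 6 tested delta genes, 2 had a difference above 0 and 4 below. Their median was -0.15 against -0.17 over all tested probe sets. GstD1 (143184_at), the delta GST known for dechlorinating DDT, had intensities of 1437, 1311 and 1367 on ablated 4, 5 and 6 and 1625, 1517 and 1296 on control 1, 2 and 3. Its groups overlapped, since control 3 was below all 3 ablated arrays. The difference was -0.10 (SE 0.11, 95% interval -0.36 to 0.15), and it crossed 0 under each of the 3 scalings of the arrays (0.0019 to 0.035).

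GstD9 (149755_at), the neighbour of GstD1, read 395, 369 and 441 on the ablated and 556, 451 and 404 on the control arrays. Ablated 6 lay above control 3, and the difference was -0.22 (SE 0.15, adjusted p = 0.615 by limma). GstD2 (149756_at) read 25.5, 19.7 and 18.9 on the ablated and 12.9, 11.6 and 23.5 on the control arrays. Control 3 stood among the ablated arrays, and the difference was 0.41 (SE 0.29, adjusted p = 0.615 by limma). GstD3 (149757_at) and GstD8 (149762_at) differed by -0.19 and 0.22. The other 5 delta genes, GstD4, GstD5, GstD6, GstD7 and GstD10, were below the level for testing, with values of 0.60 to 10.5. Of these, GstD7 (149761_at) read 2.5, 10.5 and 3.2 on the ablated and 8.9, 10.4 and 10.3 on the control arrays, so that its control mean alone reached 9.2. Neighbouring delta and epsilon genes are close relatives, and whether their probe sets read a neighbour's transcript too was not tested.

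Epsilon GSTs, the other large insect class, had overlapping groups for every tested member. Of 14 epsilon probe sets, 1 per gene, 10 were tested, 7 with a difference above 0 and 3 below, and the median was 0.058. GstE1 to GstE10 form a row of 10 neighbouring genes on chromosome arm 2R, and 6 of the 7 tested there were above 0. GstE12 (151983_at), outside that row, read 380, 430 and 293 on the ablated and 417, 362 and 287 on the control arrays, with full overlap and a difference of 0.046 (SE 0.19). That difference turned to -0.075 without ablated 5 and to -0.098 without control 3.

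GstE2 (147435_at) had the smallest p of the class. It read 167, 123 and 188 on ablated 4, 5 and 6 and 203, 189 and 186 on control 1, 2 and 3. Ablated 6 lay between control 2 and control 3, while ablated 5 was the lowest, and the difference was -0.29 (SE 0.18, adjusted p = 0.583 by limma). Among the neighbours of GstE2, GstE1 (152598_at), GstE3 (147436_at) and GstE6 (142537_at) differed by 0.020, 0.18 and 0.07. GstE14 (147138_at), known as Noppera-bo and needed for ecdysteroid synthesis in the larval prothoracic gland, read at most 2.3 on every array and was not tested. GstE7, GstE8 and GstE10 were not tested either, with values up to 11.4.

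The omega, sigma, theta and zeta classes had 11 probe sets, of which 9 were tested and none had groups that did not overlap. GstO2 had 3 probe sets. The one with the highest mean (151667_s_at) read 128, 122 and 149 on the ablated and 142, 133 and 134 on the control arrays, a difference of -0.038 (SE 0.15) that became 0.072 to 0.17 under the 3 scalings. Another (142740_at) read 16, 12.1 and 20.8 on the ablated and 22.9, 24.8 and 16 on the control arrays, a difference of -0.34 (SE 0.27). The third (151668_r_at) read 4.2, 4.2 and 7.7 on the ablated and 10.5, 7.4 and 4.5 on the control arrays and was not tested. Probe sets whose names carry _s or _r were designed with looser rules, and probes of an _s set can match more than the named transcript.

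GstO3 (148410_at), a neighbour of GstO2 on chromosome arm 3L, read 84, 55.1 and 49.9 on the ablated and 57.5, 46.4 and 48.1 on the control arrays. Control 1 was above 2 of the ablated arrays, and the difference was 0.27 (SE 0.22, adjusted p = 0.657 by limma). Without ablated 4, its highest array, it was 0.053. The only sigma gene, GstS1 (153990_at), whose enzyme conjugates products of lipid peroxidation, read 162, 139 and 170.2 on the ablated and 180.1, 165 and 147 on the control arrays. Its difference of -0.064 (SE 0.16, 95% interval -0.42 to 0.29) turned to 0.046, 0.13 and 0.14 with median-centred, quantile-normalized and cyclic loess arrays.

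Among theta GSTs, GstT3 (145431_at) read 56.5, 59.3 and 56.4 on the ablated and 73.4, 59.3 and 53.8 on the control arrays, a difference of -0.099 (SE 0.18). It turned to between 0.01 and 0.10 under the 3 scalings. The zeta class holds maleylacetoacetate isomerases of tyrosine breakdown. GstZ2 (152713_at) read 22.2, 14.6 and 11.4 on the ablated and 15.9, 3.4 and 20.8 on the control arrays, where control 2 was the lowest of all 6. Its difference of 0.40 (SE 0.49) became -0.20 without control 2. Its neighbour GstZ1 (141293_at) read at most 5.2 and was not tested.

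**Figure D2:**
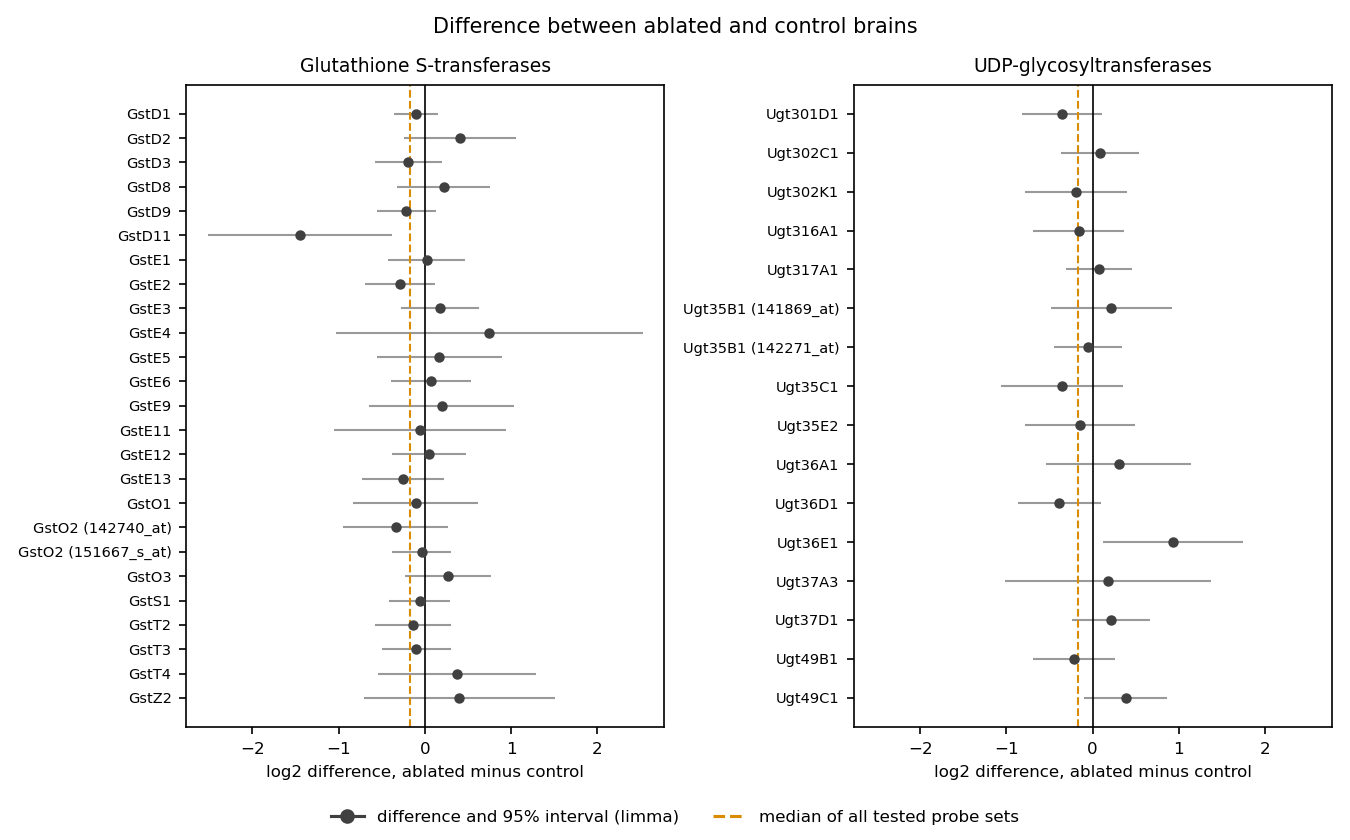
Log2 difference of each tested probe set, ablated minus control (x axis), with its 95% interval from limma, a solid line at 0 and a dashed line at -0.17, the median of all 8381 tested probe sets. The intervals of GstD11 and Ugt36E1 leave out 0, those of the other 39 members include it, and GstE4 has the widest.

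Ugt36E1 (154326_at) was the only tested UGT whose groups did not overlap. Its control mean was under the level for testing, so it was tested through its ablated arrays alone. This UGT of olfactory neurons, known for a part in the discrimination of sex pheromones, lies on chromosome arm 2L beside Ugt36D1 and Ugt36F1. It read 12.2, 18.6 and 15.3 on ablated 4, 5 and 6 and 4.1, 6.5 and 10.4 on control 1, 2 and 3. All 3 ablated arrays were above the control arrays, and the nearest pair was ablated 4 and control 3. The means were 15.4 ± 3.2 in ablated and 7.0 ± 3.18 in control brains (SD, n = 3 each), the log2 difference was 0.93 (SE 0.36, 95% interval 0.12 to 1.75), and the adjusted p was 0.554 by limma. Ugt36E1 was not tested when the filter used the control mean, nor when its level was the 60th percentile. Over 13 alternative settings that kept it, the difference lay between 0.45 and 1.18 and its adjusted p between 0.403 and 0.918. Its unadjusted p was above 0.05 without ablated 5 (0.106), ablated 6 (0.0679), control 1 (0.0758) or control 2 (0.0553), and with ablated 5 and control 1 both left out (0.199).

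All ablated arrays were also above all control arrays for 2 of the 5 tested olfactory organ markers, against 1.26% of all tested probe sets, for the sum of all 8 and for the summed tracheal and apical matrix markers. The odorant-binding protein genes Obp19d (153423_at) and Obp56d (147516_at) read 53.5, 463 and 71.3, and 76.9, 280.4 and 41.6, on ablated 4, 5 and 6. On control 1, 2 and 3 they read 28.6, 36.7 and 23.4, and 19.3, 26.1 and 29.1. Obp28a (142437_at), Os-C (143613_at) and Obp83b (143614_at) were tested too, with overlapping groups. They read 1.8, 0.9 and 4.1 on ablated 4 and 119, 237 and 218 on ablated 5. Their control means were 2.4, 1.0 and 4.9, so each reached the level for testing through the ablated arrays alone. The summed intensity of the 8 olfactory organ markers was 145, 1385 and 177 on ablated 4, 5 and 6 and 71.1, 77.4 and 67.0 on control 1, 2 and 3, so ablated 5 was highest for both these markers and Ugt36E1. On ablated 4 most of that sum came from Obp19d and Obp56d, so there the sum adds little to these genes. Orco (149330_at), the co-receptor that defines most olfactory neurons, read 2.7, 15.6 and 2.1 on the ablated and 3.6, 5.9 and 7.2 on the control arrays. The tracheal and apical matrix sum was 414, 554 and 269 on ablated 4, 5 and 6 and 146, 242 and 98.7 on control 1, 2 and 3. The part of either list in the result for Ugt36E1 was not tested. Both lists were set with earlier results of these arrays known, so their direction is not independent evidence.

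The other tested members of the Ugt36 subfamily had overlapping groups. Its neighbour Ugt36D1 (153063_at) read 65.8, 93.9 and 118 on the ablated and 113.8, 123 and 119 on the control arrays. Ablated 6 lay among the control arrays and ablated 4 was the lowest, and the difference was -0.39 (SE 0.21, adjusted p = 0.568 by limma). Ugt36A1 (145725_at) differed by 0.30 (SE 0.37) with overlapping groups, and Ugt36F1 (146455_at), between 0.6 and 7.9, was not tested.

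Ugt35B1, a UGT of the antenna, had 2 probe sets, both tested. The first (142271_at) read 710.1, 925 and 1078 on ablated 4, 5 and 6 and 1100, 913 and 792 on control 1, 2 and 3. Its groups overlapped, with ablated 4 the lowest and control 1 the highest of the 6 arrays, and a difference of -0.056 (SE 0.18, 95% interval -0.45 to 0.34) that turned to between 0.054 and 0.099 under the 3 scalings, to 0.11 without ablated 4 and to 0.068 without control 1. The other (141869_at) read 19, 11.5 and 11.7 on the ablated and 15, 9.8 and 10.1 on the control arrays, a difference of 0.22 (SE 0.31). Ugt35C1 (149663_at) and Ugt35E2 (142272_at) differed by -0.36 and -0.15. The row of 9 neighbouring genes on 3R that holds 4 of the Ugt35 genes and the Ugt302 genes had 5 tested probe sets of 10, with a median of -0.056.

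Ugt301D1 (146437_at) read 69.6, 47.5 and 64.3 on the ablated and 94.5, 68.5 and 70.7 on the control arrays. Only ablated 4 was above a control array, by a small margin, and the difference was -0.35 (SE 0.21, adjusted p = 0.578 by limma). Ugt49C1 (147609_at) went the other way, with 53.2, 64.2 and 59.1 on the ablated and 56.2, 46.3 and 33.4 on the control arrays. Control 1 lay above ablated 4, and the difference was 0.38 (SE 0.21, adjusted p = 0.568 by limma). Its chromosomal neighbour Ugt49B1 (147608_at) read 98.9, 79.3 and 85.1 on the ablated and 138, 90.9 and 84.2 on the control arrays, a difference of -0.22 (SE 0.21). With control 1 and ablated 5 both left out, that of Ugt49B1 was 0.067.

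The Ugt37 subfamily had 8 probe sets, of which 2 were tested, and Ugt37D1 (146379_at) had the highest mean. It read 53.1, 80.8 and 66.7 on the ablated and 53.5, 64.5 and 51.8 on the control arrays, with overlap and a difference of 0.22 (SE 0.20). Ugt302C1 (153186_at) read 44.6, 32.2 and 31.4 on the ablated and 34.3, 35.1 and 30.9 on the control arrays, and its difference of 0.087 (SE 0.20) was -0.065 without ablated 4. Ugt317A1 (147690_at) read 51.1, 51.1 and 62 on the ablated and 53.5, 52.2 and 49.3 on the control arrays, and its difference of 0.074 (SE 0.17) was -0.014 without ablated 6. Ugt316A1 (154822_at) read 18.9, 19.3 and 16.3 on the ablated and 24, 22.7 and 15.9 on the control arrays, a difference of -0.16 (SE 0.24).

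Ugt303, Ugt304, Ugt305 and Ugt307, 4 of the 12 UGT subfamilies, had no tested probe set. Of their 8 probe sets, Ugt303A1 (149669_at) had the highest mean and read 3.5, 2.8 and 5.6 on the ablated and 4.9, 8.8 and 5.2 on the control arrays. Ugt304A1 (149668_at), Ugt307A1 (145940_at) and both probe sets of Ugt305A1 (151488_s_at and 151489_r_at) read between 0.3 and 4.7. No test was made at these intensities, and low values do not show that the transcripts were absent.

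Set side by side, both families had medians close to 0 in the deposited values. The tests covered 69.4% of GST and 45.7% of UGT probe sets, which is no comparison of their transcript levels. Of the 25 tested GST probe sets 12 were above 0 and 13 below, and of the 16 tested UGT probe sets 8 were above and 8 below, against 25.9% above and 74.1% below 0 over all tested probe sets. With median-centred, quantile-normalized and cyclic loess arrays, 27, 26 and 30 of the 41 members were above 0, against 40.3%, 46.1% and 50.6% of all tested probe sets, and 14, 15 and 11 were below, against 59.7%, 53.9% and 49.4%. The median difference was -0.038 for GSTs and 0.0093 for UGTs, against -0.17 for all tested probe sets. Scaling moved all 3 medians upwards, so that both families stood above 0. The GST median was 0.072, 0.15 and 0.17 with median-centred, quantile-normalized and cyclic loess arrays, and the UGT median was 0.12, 0.15 and 0.18. That of all tested probe sets was -0.064, -0.024 and 0.0028.

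For GSTs the distance from all tested probe sets was 0.14 in the deposited values and 0.14, 0.18 and 0.17 under the 3 scalings. For UGTs it was 0.18 in each case. Median-centring shifts every probe set of an array alike, so it cannot change this distance. With a single array left out the distance lay between 0.079 (without ablated 5) and 0.23 (without control 2) for GSTs. For UGTs it lay between 0.045 (without ablated 5) and 0.26 (without control 3). With no filter it was 0.06 for GSTs and 0.16 for UGTs. These distances were not tested. GST subfamilies with several tested probe sets had medians of -0.15 (delta, 6), 0.058 (epsilon, 10), -0.073 (omega, 4) and -0.099 (theta, 3). Medians of Ugt35 (4 tested) and Ugt36 (3 tested) were -0.10 and 0.30, and within each of these 2 subfamilies differences went both ways.

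**Figure D3:**
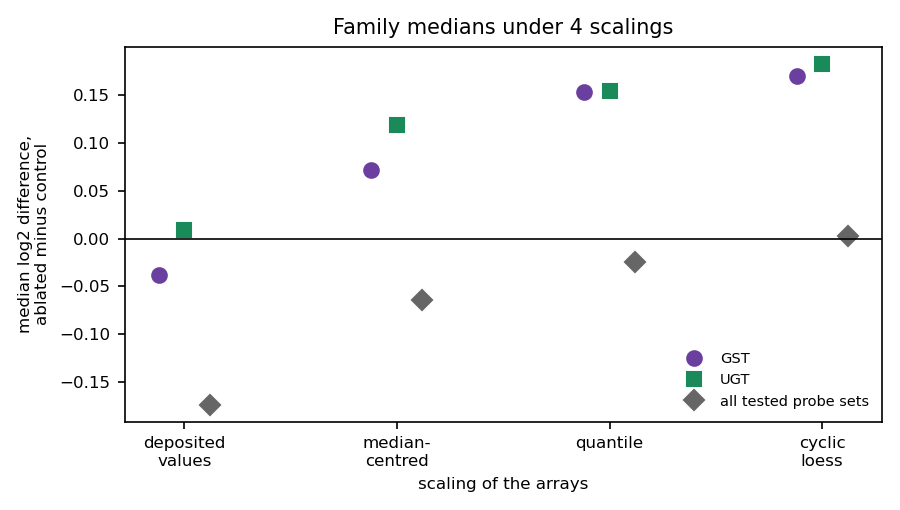
Median log2 difference, ablated minus control (y axis), of the tested GST, UGT and all probe sets for the deposited values and 3 scalings of the arrays (x axis). The family medians stand above that of all probe sets in each case, and the GST median is below 0 only for the deposited values (-0.038).

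Scaling also changed which members had groups apart, while GstD11 stayed below and Ugt36E1 above in each of the 4 cases. With median-centred arrays GstO3 and Ugt49C1 were added above, for 3 of 41 members against 3.07% of all tested probe sets. After quantile normalization a probe set of GstO2 and Ugt317A1 joined them, for 5 of 41 against 4.32%, and after cyclic loess GstS1 too, for 6 of 41 against 5.39%. Lower members numbered 1 of 41 each time, against 8.79%, 6.42% and 5.39%. Ugt49C1 had an unadjusted p under 0.05 in all 3 scaled cases, which made 2 higher members against 1.74%, 2.29% and 2.65%, while GstD11 was the 1 lower member against 3.97%, 2.67% and 2.1%. The lowest adjusted p of any member was then 0.793, 0.854 and 0.855 by limma.

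Arrays of the same group also differed from each other. The median SD within a group was 0.28 on the log2 scale for tested GSTs and 0.28 for tested UGTs, against 0.28 for all tested probe sets. Highest and lowest array were at least 3-fold apart for 7 of 41 members, against 15.6% of all tested probe sets. Relative to the control mean, the median over tested GSTs was -0.04, 0.02 and -0.077 on ablated 4, 5 and 6 and 0.14, -0.00089 and -0.18 on control 1, 2 and 3. Control 1 and control 3 were thus farther apart than any ablated array was from the control mean. The median over tested UGTs was -0.062, -0.0085 and -0.0038 on the ablated and 0.042, 0.034 and -0.12 on the control arrays.

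For 2 members, high values fell on arrays that were also high for markers of other tissues. GstE4 (147437_at), chosen after its values were seen, read 3.6, 62.9 and 10.8 on ablated 4, 5 and 6 and 19.4, 5.4 and 3.9 on control 1, 2 and 3. Ablated 5 alone set its difference of 0.75 (SE 0.79), which was -0.20 without that array. The olfactory organ markers were also highest on ablated 5 (1385 in sum, against at most 177 elsewhere), as were the muscle markers.

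GstT4 (152675_at), also chosen after its values were seen, read 37.1, 57.3 and 19.3 on the ablated and 19.2, 46.1 and 20 on the control arrays. Its highest arrays, ablated 5 and control 2, were those with the highest summed intensity of the 7 muscle probe sets, which was 239, 1204 and 251 on ablated 4, 5 and 6 and 119, 678 and 91.5 on control 1, 2 and 3. The difference of GstT4 was 0.37 (SE 0.41), its groups overlapped, and it lay between -0.17 and 0.76 over 15 alternative settings. It was 0.032 without ablated 5 and -0.17 with control 1 left out too. The epsilon class was lowest on control 3, with a median of -0.28 relative to the control mean, and stood at 0.15, 0.27 and -0.22 on ablated 4, 5 and 6 and 0.19 and 0.045 on control 1 and 2. The summed markers of fat body (11553), olfactory organs (67.0), muscle (91.5), eye (98.9) and trachea and apical matrix (98.7) were all lowest on control 3 as well. The epsilon class was highest on ablated 5, as were the olfactory organ, muscle and tracheal sums, while those of fat body and eye were highest on control 1. The part of these tissues in the values of GstE4, GstT4 and the epsilon class was not tested.

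**Figure D4:**
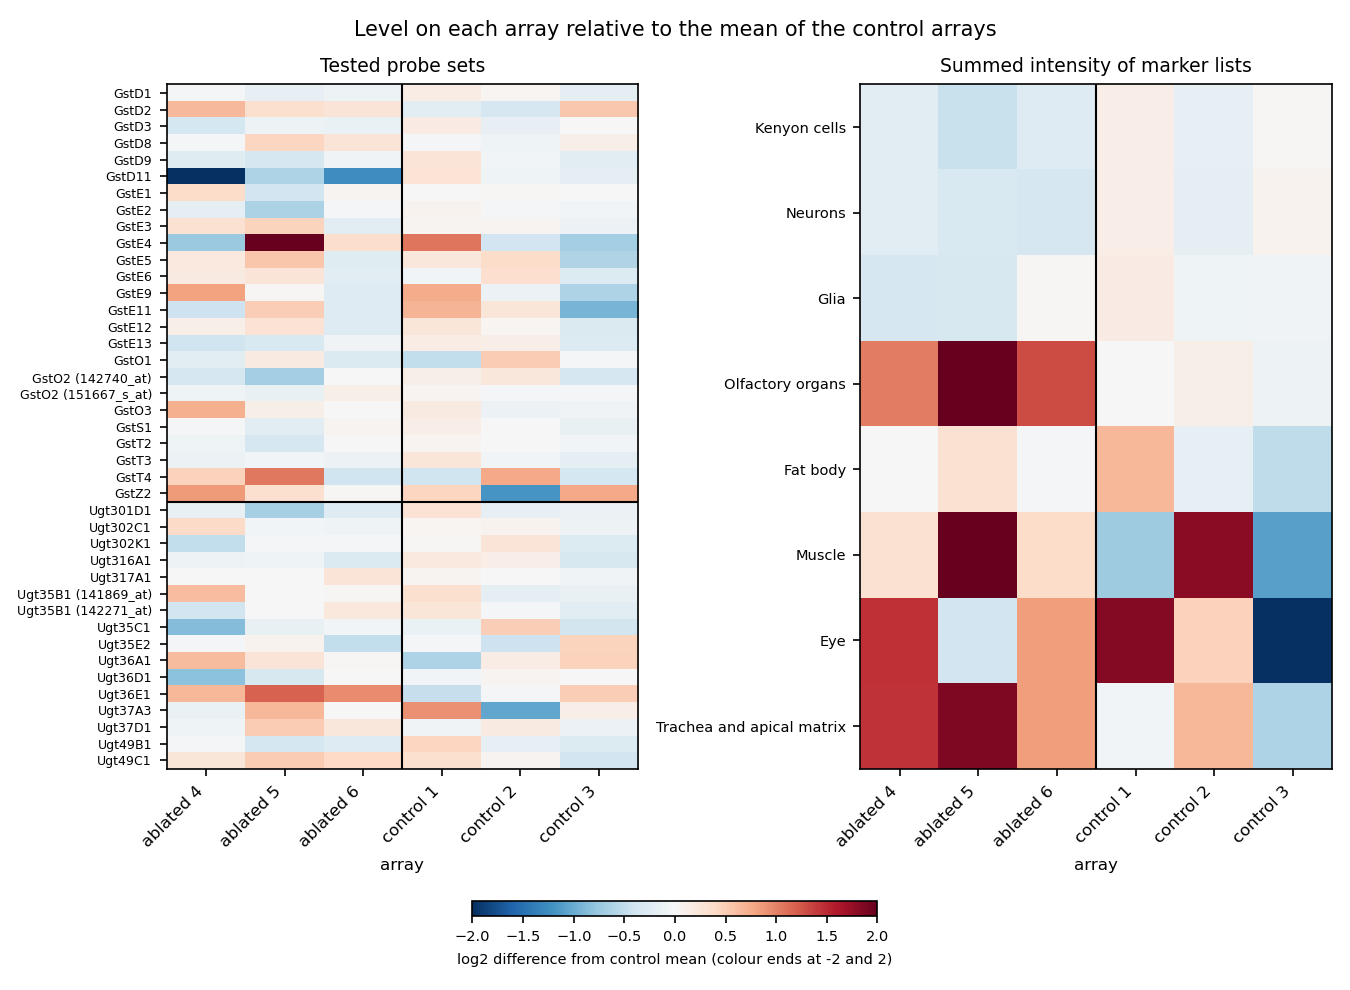
Level of each tested member (left, log2 of intensity + 2.7) and of the summed intensity of each marker list (right, log2) on each array, relative to the mean of the control arrays. The sums of the olfactory organ and of the tracheal markers are higher on all 3 ablated arrays than on the control arrays, which does not hold for each marker. Among the members only Ugt36E1 shows that order.

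**Figure D5:**
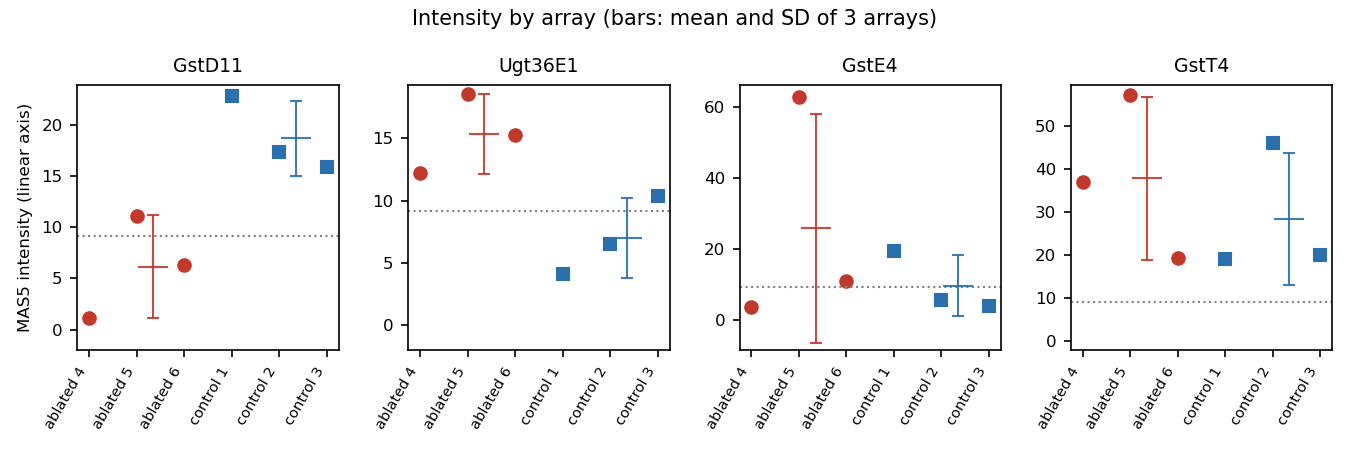
MAS5 intensity (y axis, linear) of GstD11, Ugt36E1, GstE4 and GstT4 on ablated 4, 5 and 6 (red circles) and control 1, 2 and 3 (blue squares), with bars at the mean and SD of 3 arrays and a dotted line at the level for testing, 9.2. The difference of GstE4 rests on ablated 5, at 62.9, and GstT4 is highest on ablated 5 and control 2.

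Genes that supply or regulate these enzymes also gave 0 calls after adjustment by limma. In the list for glutathione supply and thiol redox, 11 of 18 genes had a probe set with a single gene, and of 11 tested probe sets 1 was lower at an unadjusted p under 0.05 and 0 higher, against 7.89% and 0.632% of all tested probe sets. The median was -0.20, against -0.17 over all tested probe sets. The lower 1 was Prx3 (141746_at), a mitochondrial peroxiredoxin, which read 154, 117 and 174 on the ablated and 224, 239 and 183 on the control arrays. Every ablated array was below every control array, and the difference was -0.54 (SE 0.19, 95% interval -0.96 to -0.11, adjusted p = 0.554 by limma). Trx2 (141539_at), a thioredoxin, was also lower on each ablated array, at 326, 360 and 368, than on each control array, at 379, 381 and 377. Its difference was -0.11 (SE 0.12, adjusted p = 0.742 by limma), against the median of -0.17 over all tested probe sets. Prx3 and Trx2, 2 of 11, compare with 14.8% of all tested probe sets. The subunits of glutamate-cysteine ligase, the first enzyme of glutathione synthesis, differed by 0.08 for Gclc (144677_at) and -0.23 for Gclm (151897_at), with overlapping groups.

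The lists for other GST-fold or glutathione-conjugating proteins, UDP-sugar supply, regulators, antioxidant enzymes, sulfotransferases and efflux transporters had 0 probe sets at an unadjusted p under 0.05 in either direction, of 6, 4, 4, 6, 2 and 3 tested. With so few probe sets a list, and 7.89% lower and 0.632% higher over all tested probe sets, nothing is read from these counts. Their medians were 0.026, -0.056, -0.31, 0.071, 0.16 and -0.11. The smallest p of each list belonged to Clic (155158_at, -0.37), a chloride intracellular channel protein with a GST fold, sgl (141765_at, -0.24), the UDP-glucose dehydrogenase, cnc (150432_at, -0.32), the Nrf2-like activator of GST genes, Sod3 (142398_at, 0.30), the extracellular superoxide dismutase, St2 (149540_at, 0.37), a sulfotransferase, and MRP (141704_at, -0.27), a transporter of glutathione conjugates. Other tested probe sets of Sod3, 142399_at and 141909_at, differed by 0.12 and -0.0096. Other probe sets of cnc (150433_at, 151078_at and 153758_at) were not tested. All 4 tested regulators, cnc, its partner maf-S (147561_at), its inhibitor Keap1 (152189_at) and the xenobiotic receptor Hr96 (152580_at), had differences below 0, between -0.39 and -0.19, with overlapping groups, as 74.1% of all tested probe sets were below 0. The sepia gene se (148411_at), an omega GST of eye pigment synthesis whose symbol is outside the rule, read at most 7.6 and was not tested.

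The intervals show which sizes of change were compatible with these arrays. They do not show what size of change would have been called after adjustment. For 30 of the 41 tested members the 95% interval of the difference lay within 2-fold in both directions, as it did for 73.4% of all tested probe sets. Among the members with the narrowest intervals were GstD1 (-0.36 to 0.15), GstO2 (151667_s_at, -0.38 to 0.31) and GstD9 (-0.56 to 0.13). A p above the threshold does not show that these transcripts were alike in both groups, and for the 30 members below the level for testing no bound is given.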

How the data were processed

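The authors deposited linear intensities, which the submitters' processing notes credit to MAS5, and the arrays had not been brought to a common level. Settings and version of MAS5 are not given in the sources used. After 44 Affymetrix control probe sets were left out, 13966 remained, 12443 of them with a single gene in the platform annotation, and symbols of 12394 were updated by gene identifier in the RefSeq table of Release 6. The 71 members were the same by old and current symbols. Values were taken as log2(intensity + 2.7), 2.7 being the 20th percentile. The 8381 probe sets with a mean at or above 9.2 were tested with limma 3.58.1 in R 4.3.3 (lmFit, eBayes with an intensity trend, two-sided, no covariates), adjusting by Benjamini-Hochberg. The code was tested on simulated data. Identical values on 2 arrays were at most 1.52% of probe sets, and each array was kept as a sample of its own. Ratios of 3' to 5' signal for Affymetrix control transcripts, a measure of RNA quality, differed between arrays. They were 12.0 to 23.3 for eIF, 12.5 to 19.4 for actin, 7.1 to 13.0 for GAPDH and 5.3 to 18.4 for 18S RNA. Ablated and control arrays overlapped for each, and the part of RNA quality in the differences was not tested.

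The members, gene lists and marker lists were chosen with earlier results of these data known. By the naming rule, values are given for tested members whose groups do not overlap, the 10 smallest p values, the brightest probe set of each subfamily and the smallest p of each pathway list. No sequence is given. The number of arrays limits the precision. Alternatives covered scaling, offset, filter, variance model, the probe set per gene and arrays left out.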

Additional observations from a re-analysis of the deposited data

How the results depend on the processing

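No paired analysis was possible because the control and ablated arrays share no replicate numbers. Under all 15 alternatives limma called 0 members and 0 probe sets after adjustment. Counts of members with groups apart, 2 of 41 as reported, were 4 with median-centred arrays, 6 after quantile normalization, 7 after cyclic loess, 4 with no filter, 0 with the 60th percentile filter, 1 with the control mean filter, 8 with control 1 and ablated 5 both left out, and between 3 without ablated 5 and 10 without control 3 when a single array was left out, where fewer arrays make overlap rarer by construction. The share of all tested probe sets moved as well: without control 3, 8 members were below and 2 above, against 25.9% and 2.1%, and without ablated 5, 1 was below and 2 above, against 18.1% and 3.66%. With both arrays left out 3 were below and 5 above, against 21.8% and 12.8%, and with no filter 3 of 71 were below and 1 above, against 11.1% and 2.3%. The GST median of -0.038 moved to 0.15 after quantile normalization and 0.17 after cyclic loess, and lay between -0.12 and 0.028 with an array left out. The UGT median of 0.0093 moved to 0.12, 0.15 and 0.18 with median-centred, quantile-normalized and cyclic loess arrays, and lay between -0.075 and 0.039 with an array left out. The cause of these shifts was not tested.

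Of 32 named differences 18 kept their sign under the scalings, the offset of 16, the fit with no intensity trend and the arrays left out, the settings run for single members here. With median-centred, quantile-normalized and cyclic loess arrays the sign turned for GstD1 (0.0058, 0.0019 and 0.035), GstO2 (0.072, 0.15 and 0.17), GstS1 (0.046, 0.13 and 0.14), GstT3 (0.0104, 0.081 and 0.10) and Ugt35B1 (0.054, 0.069 and 0.099). With control 1 and ablated 5 both left out it turned for GstO2 (0.047), GstS1 (0.087), Ugt35B1 (0.041), Ugt49B1 (0.067), GstT4 (-0.17) and MRP (0.19). With a single array left out the range crossed 0 for GstE12 (-0.10 to 0.20), GstO2 (-0.12 to 0.019), GstS1 (-0.14 to 0.019), GstT3 (-0.19 to 0.022), GstZ2 (-0.20 to 0.78), Ugt302C1 (-0.065 to 0.17), Ugt317A1 (-0.014 to 0.12), Ugt35B1 (-0.19 to 0.11), GstE4 (-0.20 to 1.49), St2 (-0.051 to 0.64) and MRP (-0.61 to 0.038). The number of arrays and the low signal over background of the 30 untested members limit what could be seen. Uneven 3' to 5' ratios of the arrays may limit it too.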
